A study of Mus musculus with 6 samples.

Results

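The aminoacyl-tRNA synthetases, the enzymes that load each transfer RNA with its amino acid, were followed in mouse embryonic fibroblasts (MEFs) after knockdown of Yme1l. A row of the count table was taken as a member when its gene name was 1 of 36 listed names, which gave 36 genes of 51499 loci. Of these, 18 encode cytosolic enzymes, 2 (Gars and Kars) encode enzymes used in both compartments, and 16, named with a final 2, encode mitochondrial enzymes. All 36 passed the filter on low counts, as did 14499 loci in all. YME1L is a protease of the mitochondrial inner membrane, and the comparison asked which transcripts differ shortly after its depletion. Poly(A) RNA was sequenced from 6 libraries, 3 from WT MEFs transfected with a control siRNA (Scr) and 3 from WT MEFs transfected with Yme1l siRNA. Both groups were collected 72 h after transfection, and both were immortalized. The labels call the cells 3T3 immortalized, whereas the methods describe SV40 large T antigen and clonal lines. By those methods a WT line is a clone expanded after Cre transduction that kept Yme1l loxP/loxP, so both groups may stand on cells of 1 clone.

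Each synthetase joins 1 amino acid to its transfer RNAs in a reaction driven by ATP, and the ribosome then reads the charged tRNA. Nuclear genes encode the cytosolic set and, for most amino acids, a separate mitochondrial set that is imported to serve the few proteins translated from mtDNA. In the cytosol several synthetases are bound in the multisynthetase complex, held together by the scaffold proteins AIMP1, AIMP2 and AIMP3 (gene Eef1e1). Many cytosolic synthetase genes are known targets of ATF4, the transcription factor of the amino acid response, which binds CARE elements (C/EBP-ATF response elements).

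Yme1l1, the targeted gene, was at 170, 171 and 171 counts scaled to library size (CPM) in the Scr libraries and at 31.6, 23.4 and 45.0 CPM in the Yme1l siRNA libraries, a log2 fold change of -2.36 (SE 0.20, edgeR adjusted p = 3.87e-05). The libraries held 37260605 to 45205207 counts, and the members 137 (Pars2) to 39445 (Lars2) counts per library. Of 7 fibroblast markers, 6 were above 1 CPM in every library and Thy1 was at or near 0. Their summed level was 24652 to 31615 CPM in Scr and 14208 to 17141 CPM in Yme1l siRNA, with 5 of the 6 tested lower. Of 9 markers of other cell types, Cd68 alone exceeded 1 CPM, and their sum was 27.0 to 59.5 CPM over the libraries. Whether this shift in fibroblast genes has a part in the results below was not tested. In bulk RNA, a change in the number of expressing cells and a change in RNA per cell cannot be told apart. By the methods, replicates of MEF experiments are separate cultures, which the labels of these libraries do not state, and the p-values measure the spread between the 3 libraries of a group.

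Synthetase transcripts rose more often than they fell, and by less than 2-fold in each case. In edgeR's quasi-likelihood test with Benjamini-Hochberg adjustment over all loci, 14 of the 36 members were higher after Yme1l knockdown (38.9%), 5 were lower (13.9%) and 17 did not pass the threshold of 0.05. Over all loci tested, 28.4% were called higher, 29.6% lower and 58% either way, so that the members were called about as often as other loci (52.8%), with more of the calls upwards. The median log2 fold change of the members was 0.12, beside 0.01 over all loci. None of the members was both called and changed at least 2-fold, a class that held 15.5% of all loci. The CPM of the groups did not overlap for 19 members (52.8%), beside 65.4% of all loci. These counts describe the list and were not tested as a set.

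**Figure D1:**
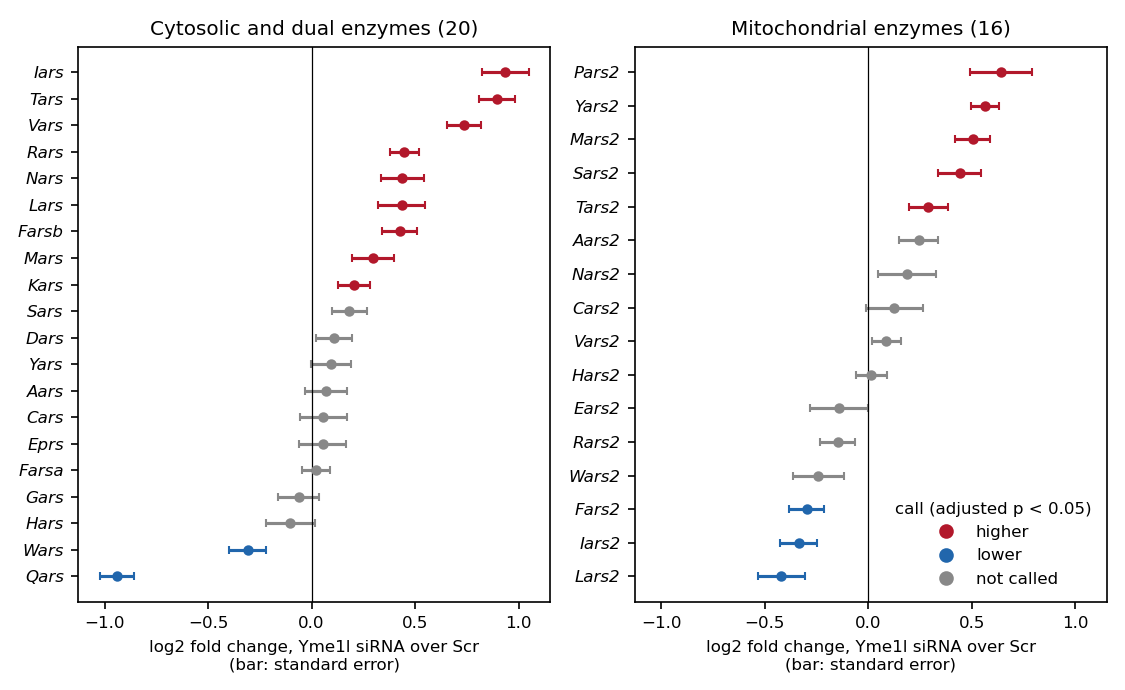
Log2 fold change of each synthetase gene, Yme1l siRNA over Scr (horizontal axis, edgeR), for 20 cytosolic and dual enzymes (left) and 16 mitochondrial enzymes (right). Points are estimates, bars are standard errors, and colour marks the call; values run from -0.94 (Qars) to 0.94 (Iars).

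Among the cytosolic and dual enzymes 9 of 20 rose (45%), 2 fell (10%) and 9 were not called, with a median log2 fold change of 0.15. Over all loci 28.4% were called higher and 29.6% lower. The enzymes for isoleucine, threonine and valine led the rise, and the enzyme for glutamine fell by nearly as much as that for isoleucine rose. Iars, the isoleucyl-tRNA synthetase (chr13:49682100-49734267, GRCm38), was at 153, 144 and 172 CPM in Scr and at 316, 253 and 329 CPM in Yme1l siRNA. The lowest knockdown library thus stood well above the highest Scr library. The change was 1.91-fold (log2 0.94, SE 0.11, edgeR adjusted p = 2.04e-04). A related locus, Gm4849, matches the Iars transcript at 94.7% over 2251 bases and held 35 to 90 counts per library, beside 5202 to 14033 for Iars.

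Tars, the threonyl-tRNA synthetase (chr15:11382301-11399665), was at 307, 311 and 323 CPM in Scr and at 609, 516 and 627 CPM after knockdown. The groups were far apart, at 1.86-fold (log2 0.90, SE 0.09, edgeR adjusted p = 6.74e-05). Vars, which charges valine, was at 245, 241 and 268 CPM in Scr and at 428, 382 and 445 CPM in Yme1l siRNA. This was a 1.66-fold rise without overlap (log2 0.74, SE 0.08, edgeR adjusted p = 1.33e-04).

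The RefSeq promoter windows (GRCm38.p6) were read for the CARE core TGATGNAA on both strands, from 250 bases before to 50 after each start. A window was at hand for 27 of the 36 members, and Cars, Hars, Lars, Nars, Rars, Vars, Wars, Hars2 and Pars2 had none. The motif was in 5 of 13 cytosolic and dual windows (38.5%) and in 0 of 14 mitochondrial windows, beside 4.51% of 27025 genes. The stricter TGATGCAA, a subset of it chosen after the data were seen, was in 4 of 13 (30.8%), 0 of 14 and 1.03% of genes. The 5 windows with the motif are shown because they include those of Iars and Tars, from 120 bases before to 30 after the start, 5′ to 3′ along the transcript, with the motif of either strand in capitals. They are, in the order printed, chr13:49682010-49682159 (plus strand), chr15:11399629-11399778 (minus strand), chr4:129189783-129189932 (plus strand), chr8:111033722-111033871 (plus strand) and chr6:55037881-55038030 (plus strand).
Iars: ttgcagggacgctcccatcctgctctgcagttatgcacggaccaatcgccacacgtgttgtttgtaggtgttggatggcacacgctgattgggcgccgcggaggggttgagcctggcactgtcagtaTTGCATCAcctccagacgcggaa
Tars: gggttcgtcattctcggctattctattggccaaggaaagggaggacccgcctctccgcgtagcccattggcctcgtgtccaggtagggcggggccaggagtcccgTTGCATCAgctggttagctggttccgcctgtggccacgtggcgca
Yars: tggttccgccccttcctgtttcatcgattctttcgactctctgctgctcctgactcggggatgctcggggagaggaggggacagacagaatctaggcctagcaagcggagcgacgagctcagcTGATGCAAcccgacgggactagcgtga
Aars: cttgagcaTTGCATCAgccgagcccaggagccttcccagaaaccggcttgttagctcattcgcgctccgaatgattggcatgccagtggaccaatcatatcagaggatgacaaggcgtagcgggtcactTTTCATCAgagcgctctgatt
Gars: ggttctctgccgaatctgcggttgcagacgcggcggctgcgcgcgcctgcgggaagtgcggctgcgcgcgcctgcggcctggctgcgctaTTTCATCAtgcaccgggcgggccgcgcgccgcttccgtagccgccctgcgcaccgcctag
With the start as position 1, the first capital is at 8 in Iars, -15 in Tars, 4 in Yars, -112 and 10 in Aars and -30 in Gars. Of the 5 genes, Iars and Tars were called higher and Yars, Aars and Gars were not called. Farsb, Kars and Mars were called higher and held no such letters in their windows. A match of letters is a description and not a binding site.

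Rars, Nars and Lars, the enzymes for arginine, asparagine and leucine, rose by similar amounts. Rars was at 145, 153 and 143 CPM in Scr and at 206, 190 and 206 CPM after knockdown (log2 0.45, SE 0.07, edgeR adjusted p = 7.36e-04). Nars was at 319, 335 and 368 CPM in Scr and at 484, 398 and 502 CPM in Yme1l siRNA (log2 0.44, SE 0.10, edgeR adjusted p = 0.00597). For both genes every knockdown library lay above every Scr library, for Nars by a narrow gap at Yme1l siRNA 2. Lars was at 201, 215 and 238 CPM in Scr and at 308, 246 and 328 CPM in Yme1l siRNA (log2 0.43, SE 0.12, edgeR adjusted p = 0.0111). Here Yme1l siRNA 2 lay just above Scr 3.

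The other cytosolic rises were smaller or less stable. Farsb, the beta subunit of phenylalanyl-tRNA synthetase, rose by 0.42 on the log2 scale (SE 0.09, edgeR adjusted p = 0.00308), and 248 bases of its exons lie opposite Sgpp2. Its partner in the same enzyme, Farsa, had the log2 fold change nearest to 0 of the cytosolic set. Farsa was at 62.4, 67.1 and 65.8 CPM in Scr and at 65.4, 63.5 and 69.4 CPM in Yme1l siRNA (log2 0.02, SE 0.07, edgeR adjusted p = 0.802), and the groups overlapped. Mars, for methionine, rose by 0.30 (SE 0.10, edgeR adjusted p = 0.0324) although its groups overlapped, and 68 bases of its exons lie opposite Ddit3. It lost the call without Scr 1, Scr 2, Yme1l siRNA 1 or Yme1l siRNA 3, at adjusted p = 0.116, 0.117, 0.109 and 0.0860. Kars, for lysine in both compartments, rose by 0.20 (SE 0.08, edgeR adjusted p = 0.0493) and lost the call without any 1 library but Yme1l siRNA 2, the highest adjusted p being 0.144.

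Qars, the glutaminyl-tRNA synthetase (chr9:108507706-108515941), fell. It was at 94.9, 101 and 108 CPM in Scr and at 50.9, 49.7 and 57.4 CPM after knockdown. All knockdown libraries were far below all Scr libraries, at 0.521 of the Scr level (log2 -0.94, SE 0.08, edgeR adjusted p = 4.20e-05). Mammals have no separate mitochondrial glutaminyl-tRNA synthetase, and mitochondria make this charged tRNA by amidation. Wars, for tryptophan and known as an interferon-induced gene, fell by 0.31 on the log2 scale (SE 0.09, edgeR adjusted p = 0.0163), and without Scr 2 its adjusted p was 0.0518.

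The 9 cytosolic and dual genes not called had log2 fold changes from -0.10 (Hars, SE 0.12) to 0.18 (Sars, SE 0.08). Between them were Gars at -0.06, Farsa at 0.02, Eprs at 0.05, Cars at 0.06, Aars at 0.07, Yars at 0.09 and Dars at 0.11. These are the enzymes for histidine, serine, glycine, glutamate with proline, cysteine, alanine, tyrosine and aspartate, beside the phenylalanine subunit above. The count of Aars is uncertain, since the table joins it with its neighbour Exosc6. Sars was called without Scr 3 (adjusted p = 0.0317) and Dars without Yme1l siRNA 2 (adjusted p = 0.0338).

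**Figure D2:**
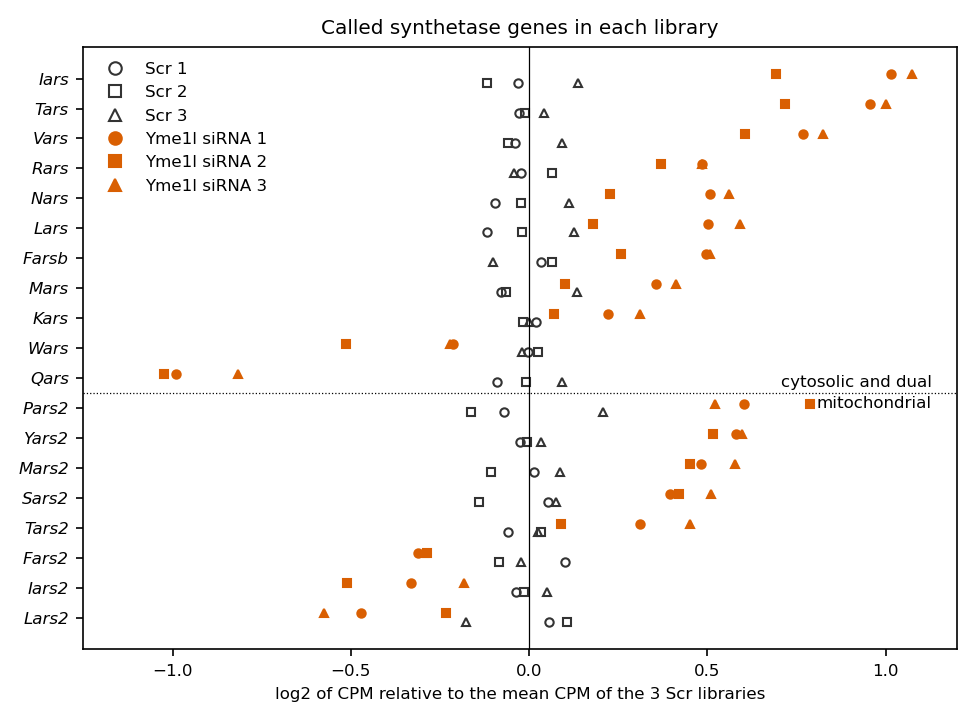
Log2 of CPM relative to the mean of the 3 Scr libraries (horizontal axis) for the 19 called synthetase genes, with 1 symbol per library. Yme1l siRNA 2 (filled squares) is the lowest of its group in each cytosolic and dual gene shown, and Mars is the gene whose groups overlap.

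The cytosolic genes were ordered much alike across the libraries of a group. Yme1l siRNA 2 was the lowest knockdown library for 20 of 20 cytosolic and dual genes and for 10 of 16 mitochondrial genes. Scr 3 was the highest Scr library for 13 of 20 and 10 of 16. How often these libraries are lowest or highest over all loci was not computed, so this order may not be particular to synthetases. Relative to the Scr mean, the median log2 level of the cytosolic and dual genes was -0.06, -0.02 and 0.09 in Scr and 0.20, 0.02 and 0.22 in Yme1l siRNA. The median over all loci stayed between -0.01 and 0.01 in each library. Yme1l siRNA 2, with the lowest Yme1l1 level of the group, was thus close to Scr in this median. Leaving out Yme1l siRNA 2 moved the median log2 fold change of the cytosolic and dual genes to 0.22.

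Of the 8 enzymes of the multisynthetase complex, 5 rose (Iars, Lars, Rars, Mars and Kars), 1 fell (Qars) and 2 were not called (Eprs and Dars), with a median log2 fold change of 0.25. Of the 12 cytosolic and dual genes outside it, 4 rose (Tars, Vars, Nars and Farsb), 1 fell (Wars) and 7 were not called, with a median of 0.08. Among the 3 scaffold genes, Aimp2 rose by 0.75 on the log2 scale (SE 0.07, edgeR adjusted p = 5.53e-05) and Eef1e1 by 0.55 (SE 0.06, edgeR adjusted p = 1.71e-04). Aimp1 was at 0.13 (SE 0.08) and was not called. Called higher were 62.5% of the enzymes inside the complex and 33.3% of those outside it, beside 28.4% of all loci. Called lower were 12.5% and 8.33%, beside 29.6% of all loci. No test compared the enzymes inside with those outside the complex.

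Among the mitochondrial enzymes 5 of 16 rose (31.25%), 3 fell (18.75%) and 8 were not called, with a median log2 fold change of 0.11. Over all loci 28.4% were called higher and 29.6% lower, so the share that rose was close to that of all loci. The enzymes for proline, tyrosine, methionine and serine rose, and those for leucine, isoleucine and phenylalanine fell. Pars2, the mitochondrial prolyl-tRNA synthetase, was at 4.04, 3.80 and 4.91 CPM in Scr and at 6.45, 7.34 and 6.10 CPM in Yme1l siRNA. These are the lowest levels of all members, and the groups did not overlap (log2 0.64, SE 0.15, edgeR adjusted p = 0.00639).

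Yars2, for tyrosine, was at 19.9, 20.2 and 20.7 CPM in Scr and at 30.3, 28.9 and 30.6 CPM after knockdown. Replicates were tight, and the 1.48-fold rise (log2 0.56) had an SE of 0.07 and an edgeR adjusted p of 2.14e-04. Mars2, for methionine, was at 16.7, 15.3 and 17.5 CPM in Scr and at 23.0, 22.5 and 24.6 CPM in Yme1l siRNA (log2 0.50, SE 0.08, edgeR adjusted p = 0.00112). Sars2, for serine, was at 9.12, 7.98 and 9.27 CPM in Scr and at 11.6, 11.8 and 12.5 CPM in Yme1l siRNA (log2 0.44, SE 0.10, edgeR adjusted p = 0.00661). In both genes every knockdown library was above every Scr library. Tars2, for threonine, rose by 0.29 (SE 0.09, edgeR adjusted p = 0.0275), and lost the call without any 1 library but Yme1l siRNA 2, at adjusted p = 0.0581 to 0.0990.

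Lars2, for leucine (chr9:123366927-123462666), fell. It was at 911, 944 and 776 CPM in Scr and at 632, 746 and 589 CPM in Yme1l siRNA, without overlap between Scr 3 and Yme1l siRNA 2 (log2 -0.42, SE 0.11, edgeR adjusted p = 0.0118). A stretch of 72 bases in its transcript matches the locus Gm15564 at 98.6%. That locus held 292, 256 and 199 counts in Scr and 207, 201 and 162 in Yme1l siRNA. How many Lars2 reads fall in this stretch was not measured, so the fall may not be one of Lars2 mRNA alone. Iars2, for isoleucine, was at 73.2, 74.4 and 77.8 CPM in Scr and at 59.7, 52.7 and 66.2 CPM in Yme1l siRNA, again without overlap (log2 -0.34, SE 0.09, edgeR adjusted p = 0.0109). Of its exons, 2034 bases lie opposite Rab3gap2, which held 2842 to 4044 counts per library beside 2292 to 3281 for Iars2. Whether the counting used strand is not given in the sources used here, so reads of the 2 genes there cannot be told apart. Fars2, for phenylalanine, fell by 0.30 (SE 0.08, edgeR adjusted p = 0.0151). It lost the call without Scr 1 or without Yme1l siRNA 1, at adjusted p = 0.0664 and 0.0594. Exons of Lyrm4 and of Nrn1 lie opposite its own, the larger overlap with either gene being 501 bases.

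The 8 mitochondrial genes not called ran from -0.24 (Wars2, SE 0.12) to 0.25 (Aars2, SE 0.09). Rars2 was at -0.15, Ears2 at -0.14, Vars2 at 0.09, Cars2 at 0.13 and Nars2 at 0.19, the enzymes for arginine, glutamate, valine, cysteine and asparagine. Hars2, for histidine, was nearest to 0, at 28.6, 28.2 and 28.6 CPM in Scr and at 29.0, 26.6 and 30.5 CPM in Yme1l siRNA (log2 0.01, SE 0.08, edgeR adjusted p = 0.884), and the knockdown libraries lay on both sides of the Scr libraries. Aars2, for alanine, missed the threshold at an edgeR adjusted p of 0.0512, and passed it in 7 of 13 alternative analyses. Nars2 was called without Yme1l siRNA 2 (adjusted p = 0.0359). Exons of Aars, Cars, Hars, Yars, Cars2, Ears2, Hars2, Nars2 and Vars2 also lie opposite exons of another gene, over 30 to 465 bases.

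**Figure D3:**
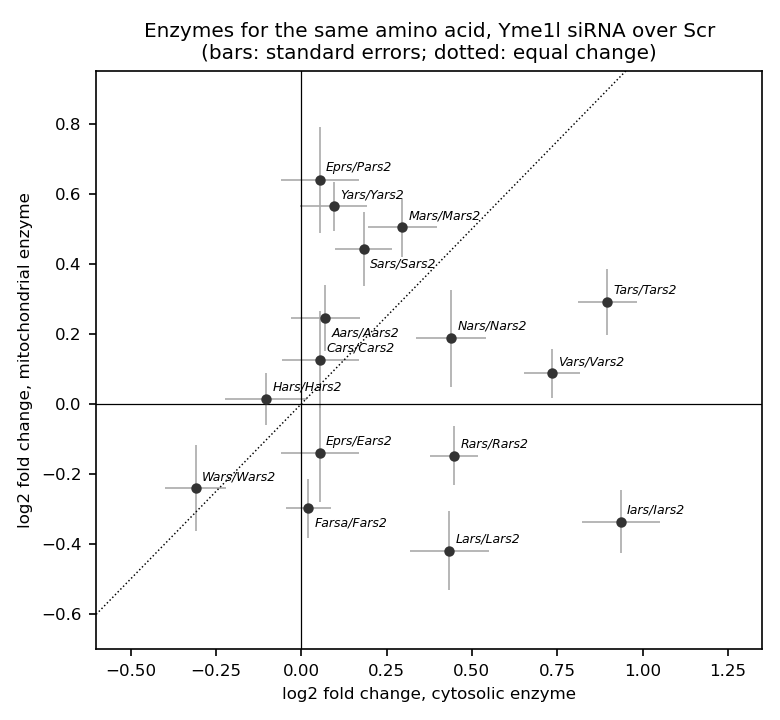
Log2 fold change of the cytosolic enzyme (horizontal) against that of the mitochondrial enzyme for the same amino acid (vertical), Yme1l siRNA over Scr, for 16 pairs. Points are estimates and bars standard errors; points below the dotted line, such as Iars with Iars2 and Lars with Lars2, have the higher signed log2 fold change in the cytosolic enzyme.

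The enzymes for the same amino acid often differed in their change. Across 16 pairs (Eprs enters 2 of them) Pearson's r of the log2 fold changes was -0.09 and Spearman's rho was -0.01, as a description over genes of the same libraries. Isoleucine and leucine had a cytosolic enzyme that rose and a mitochondrial enzyme that fell. Methionine and threonine had 2 enzymes that both rose. The log2 ratio of Iars to Iars2 was 1.07, 0.95 and 1.15 in Scr and 2.41, 2.26 and 2.31 in Yme1l siRNA, a difference of 1.27 with the groups far apart. That of Lars to Lars2 was -2.18, -2.14 and -1.71 in Scr and -1.04, -1.60 and -0.85 in Yme1l siRNA, a difference of 0.85 with a narrow gap. The limits on Iars2 and Lars2 counts given above hold for these ratios as well.

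The ratio was higher after knockdown, without overlap, in 8 pairs, the others being those of valine (0.65), threonine (0.61), arginine (0.60), phenylalanine (0.32, with Farsa), asparagine (0.26) and glutamate (0.19). It was lower without overlap in 5 pairs, those of proline (-0.60), tyrosine (-0.47), serine (-0.26), methionine (-0.21) and alanine (-0.17). The alanine ratio rests on the Aars count, which is joined with that of Exosc6. The histidine, cysteine and tryptophan pairs overlapped, at -0.13, -0.09 and -0.08. For CPM of single loci the groups did not overlap in 65.4% of all loci. The share among ratios of other gene pairs was not computed, so whether these counts are particular to synthetase pairs is not known. With 3 against 3 libraries the two-sided exact permutation test cannot give a p below 0.1, which each of the 13 pairs without overlap had. Adjusted over the 16 pairs, the smallest p was 0.123. The glutamate difference fell to 0.11 without Scr 1, and the proline difference was -0.39 without Yme1l siRNA 2.

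**Figure D4:**
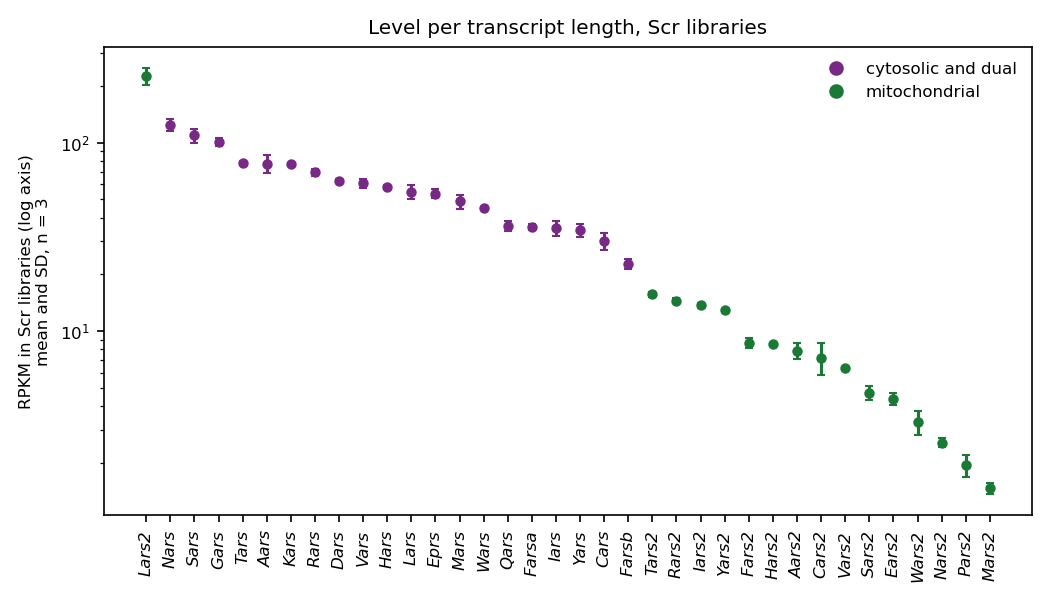
Level per transcript length (RPKM, logarithmic vertical axis) of each synthetase gene in the 3 Scr libraries, ordered by level; points are means and bars SD (n = 3). Lars2 stands at 225, above the cytosolic and dual genes (22.8 to 124), and the other mitochondrial genes lie between 1.46 and 15.6.

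Per length of the principal transcript, in counts per kilobase at the CPM scale (RPKM), the cytosolic and dual genes had a median of 56.5 in Scr, from 22.8 ± 1.38 (SD, n = 3) for Farsb to 124 ± 9.09 for Nars. The mitochondrial genes other than Lars2 had a median of 7.23, from 1.46 ± 0.0980 for Mars2 to 15.6 ± 0.535 for Tars2. The first median was 7.81 times the second, and each of the 20 cytosolic and dual genes was above each of these 15. Lars2 stood apart at 225 ± 22.9, 31.2 times the median of the other mitochondrial genes. Neighbours in the order often did not differ beyond their spread, such as Tars at 78.3 ± 2.01, Aars at 77.5 ± 8.53 and Kars at 77.1 ± 0.968. The length of Mars2 is 11294 bases in the annotation, and that of Aars includes 1326 bases shared with Exosc6, so both levels depend on the gene model. The share of Lars2 reads in the stretch that matches Gm15564 was not measured, so its level may include reads from elsewhere.

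Genes that act beside the synthetases moved in part. Over all loci 28.4% were called higher and 29.6% lower, the shares to set beside the short lists here. In the mitochondrial steps that amidate or formylate charged tRNAs, Qrsl1, a subunit of the glutaminyl-tRNA amidotransferase, rose by 0.44 on the log2 scale (SE 0.09, edgeR adjusted p = 0.00256). Gatc, another subunit, was at 0.03, and Gatc, Gatb and Mtfmt were not called. Of 5 cytosolic elongation factors 3 rose, among them Eef1d by 0.43 (SE 0.10, edgeR adjusted p = 0.00561) and Eef1b2 by 0.27 (SE 0.08, edgeR adjusted p = 0.0149). The other was Eef2 (log2 0.22, SE 0.08, edgeR adjusted p = 0.0346), which lost the call without any 1 library but Yme1l siRNA 2, at adjusted p = 0.0601 to 0.102. Without Scr 1 or Scr 3, Eef1b2 also lost the call, at adjusted p = 0.0517 and 0.0524, which left 1 of the 5 factors called. Of 4 mitochondrial elongation factors Tsfm, the exchange factor of mitochondrial EF-Tu, rose by 0.58 (SE 0.07, edgeR adjusted p = 2.38e-04). Gfm2 was at 0.27 (SE 0.10, edgeR adjusted p = 0.0521) and was not called, but passed the threshold in 5 of 13 alternatives. Without Yme1l siRNA 2, Gfm2 and Gfm1 were both called, at adjusted p = 0.0144 and 0.0157.

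Of 10 genes of the amino acid response, 4 rose (40%), 3 fell (30%) and 3 were not called, with a median log2 fold change of 0.39. Over all loci 28.4% were called higher and 29.6% lower. Asns, Atf4, Chac1 and Ddit3 (higher) and Cebpb and Ddit4 (lower) kept their calls in each of 13 alternatives. Atf4 rose by 0.41 on the log2 scale (SE 0.09, edgeR adjusted p = 0.00326). The rest of the split was unstable. Atf5, called lower, lost the call in 9 of 13 alternatives, and without any 1 library but Yme1l siRNA 3 its adjusted p was 0.0550 to 0.135. Sesn2, not called, passed the threshold in 8 alternatives. Without Scr 3, Sesn2 and Trib3 were called higher, at adjusted p = 4.59e-04 and 9.14e-04, and without Yme1l siRNA 2 Nupr1 was called lower (adjusted p = 0.00661). Ddit4, an inhibitor of mTORC1 signalling, was at 290, 324 and 390 CPM in Scr and at 71.3, 67.8 and 98.6 CPM in Yme1l siRNA, the largest change of the list (log2 -2.08, SE 0.16, edgeR adjusted p = 2.63e-05). Chac1, a glutathione-degrading enzyme, was at 25.9, 28.1 and 44.1 CPM in Scr and at 71.7, 68.1 and 71.5 CPM in Yme1l siRNA (log2 1.11, SE 0.18, edgeR adjusted p = 8.72e-04). In both genes the groups stood well apart. Relative to the Scr mean, the median log2 level of the list was -0.14, -0.04 and 0.20 in Scr and 0.43, 0.32 and 0.36 in Yme1l siRNA. As for the cytosolic synthetases, Scr 3 was the highest Scr library and Yme1l siRNA 2 the lowest knockdown library in this median, but here no knockdown library came down to the Scr values.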

How the data were processed

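RNA-seq of 6 libraries (3 Scr, 3 Yme1l siRNA, 72 h after transfection) was analysed from raw counts per locus deposited by the authors. Per the methods and the submitters' processing notes, poly(A) stranded libraries were mapped to GRCm38 with HISAT2 2.0.4, assembled with StringTie 1.3.3 and compared with Cuffdiff 2.2.1. The counting program and its strand setting are not given in the sources used here. The authors' own comparison (group FPKM, fold changes, p-values) was not used.

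Loci passing filterByExpr (minimum count 10, total 15) were scaled by TMM and tested with edgeR 4.0.16 (R 4.3.3, quasi-likelihood, both groups, no covariate), with Benjamini-Hochberg adjustment over 14499 loci and a threshold of 0.05. The libraries held 37260605 to 45205207 counts before scaling, and CPM values use the TMM-scaled sizes. Ratios of enzymes were tested by exact permutation. Lengths are those of GENCODE M21 principal transcripts. Matches to other transcripts were found with BLAST 2.17.0 (at least 70 bases and 90% identity). Stretches that matched more than 10 genes were left out as repeats. Scripts were tested on simulated data. No libraries of a group agreed within counting noise (chi-square per degree of freedom 10.4 to 75.5).

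Alternatives were other scaling (relative log expression, upper quartile), other count filters, DESeq2 1.42.0, limma-voom (limma 3.58.1), a stricter threshold, the replicate block and leaving out each library. The members and all gene lists were chosen with earlier results of these data known, and the split by multisynthetase complex and by enzyme class was added after the counts were seen. Library values are given for the 7 cytosolic or dual and 6 mitochondrial called genes with the largest absolute log2 fold change and for the gene of each set nearest to 0, and from each other list the 2 genes with the smallest adjusted p are named. Genes named beyond these (such as overlapping loci) were chosen after their values were seen.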

Additional observations from a re-analysis of the deposited data

How the results depend on the processing

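No synthetase gene reversed a call in any of 13 alternatives. Of the 19 called genes, 14 kept the call in all of them, and Mars, Kars, Wars, Tars2 and Fars2 lost it in at least 1. Dars, Sars, Aars2 and Nars2 gained a call in at least 1. The sign of 7 uncalled genes (Cars, Eprs, Farsa, Hars, Gars, Cars2 and Hars2) changed in some alternative. At an adjusted p under 0.01 the genes called lower numbered 1 of 36 (Qars), being 1 of the cytosolic and dual set and 0 of the mitochondrial set. The share of all loci called at 0.01 was not computed. Leaving out 1 library at a time gave 11 to 17 genes higher and 4 to 5 lower. By set this was 7 to 10 higher and 1 to 2 lower for the cytosolic and dual genes, and 4 to 7 higher and 2 to 3 lower for the mitochondrial genes, and without Scr 2 the cytosolic and dual genes called lower fell to 1. The calls over all loci moved with these fits as well. Called higher were 3451 of 14812 loci (without Scr 2) to 4133 of 14823 (without Yme1l siRNA 3). Called lower were 3616 of 14726 (without Yme1l siRNA 1) to 4312 of 14823 (without Yme1l siRNA 3). The median log2 fold change ranged from 0.10 to 0.22 (cytosolic and dual) and from 0.05 to 0.14 (mitochondrial), and that of Yme1l1 from -2.64 to -2.15. Same-numbered libraries deviated together weakly (correlations 0.04, 0.12 and 0.19), and differently numbered ones had correlations of -0.18 to 0.09. For each knockdown library the same-numbered Scr library had the highest correlation. The main fit did not take the numbers as pairs, and whether they mark pairs is not known. With the replicate block 15 genes were higher and 5 lower, Aars2 being the gain (adjusted p = 0.0197). Of 14499 loci, the block called 4227 higher and 4460 lower, beside 4123 and 4288 in the main fit. Among the genes beside them, the block added calls of Gfm2, Sesn2 and Nupr1 (adjusted p = 0.0191, 0.0253 and 0.0394) and ended that of Eef2 (adjusted p = 0.0564), and it changed no other call of a named gene. Leaving out 1 library turned no enzyme ratio without overlap. The cysteine ratio difference, with overlap, ranged from -0.19 to 0.03. The depth limits the low genes most, Pars2 holding 137 to 319 counts.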

Other observations

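Synthetases fall into class I and class II by the fold of their catalytic domain, and Eprs, which holds both, was left out of this split. Of 18 class I genes 7 were called higher and 4 lower, with a median log2 fold change of 0.09. Of 17 class II genes 7 were called higher and 1 lower (Fars2), with a median of 0.19. Called higher were 38.9% of class I and 41.2% of class II, beside 28.4% of all loci. Called lower were 22.2% and 5.88%, beside 29.6% of all loci. The difference between the classes was not tested.

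Of 6 tested genes of tRNA maturation and proofreading, 2 rose (33.3%), 2 fell (33.3%) and 2 were not called. Over all loci 28.4% were called higher and 29.6% lower. Trmt10c, the methyltransferase subunit of mitochondrial RNase P, was at 30.6, 31.0 and 28.7 CPM in Scr and at 58.7, 62.6 and 57.9 CPM in Yme1l siRNA, a 1.99-fold rise without overlap (log2 0.99, SE 0.07, edgeR adjusted p = 1.43e-05). Elac2, which cuts the 3′ end of precursor tRNAs, rose by 0.47 on the log2 scale (SE 0.07, edgeR adjusted p = 6.26e-04). The fallen genes were Dtd1 (log2 -0.60), a deacylase of mischarged tRNAs, and Hsd17b10 (log2 -0.23), another subunit of mitochondrial RNase P. They are named here after their values were seen, and Hsd17b10 lost the call without any 1 library but Scr 3.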
